A study of Bos taurus with 129 samples.

Results

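The 10 genes described here encode proteins of glucose uptake and glycolysis, and they were chosen by symbol: SLC2A1, SLC2A3, HK1, HK2, PFKL, PFKFB3, PGK1, ENO1, PKM and LDHA. Each symbol matched 1 of the 32395 genes of the count table, and 10 of 10 were among the 18937 genes that passed the filter on low counts. Whole blood RNA of 26 commercial crossbred beef steers was sequenced at arrival at a stocker facility (day 0) and on days 13, 28, 45 and 60, giving 59 libraries of healthy and 70 libraries of diseased cattle. INR cattle were fed copper, cobalt, manganese and zinc as sulfates. AAC cattle were fed these elements complexed to amino acids. COMBO cattle received the AAC feed and an oral drench of trace minerals and vitamins before shipment, on day 0 and at any treatment for illness. All cattle had been trucked a long distance, were dewormed with doramectin and vaccinated against respiratory viruses on day 0, and received the vaccine again between the day 13 and day 28 samplings; no group went without added minerals. The disease label separated 12 animals never diagnosed with or treated for bovine respiratory disease (BRD), called healthy, from 14 labelled as diseased, called BRD. That label belongs to the animal, and the day of illness was not given in the sources used here, nor was the age of the cattle.

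Glucose enters blood cells through facilitative carriers such as GLUT1 (SLC2A1) and GLUT3 (SLC2A3), and hexokinases (HK1, HK2) trap it by phosphorylation. Phosphofructokinase (PFKL is its liver-type subunit) then commits the sugar to glycolysis, and PFKFB3 makes fructose 2,6-bisphosphate, the strongest activator of that step. PGK1, ENO1 and PKM act in the lower, energy-yielding steps, and LDHA turns pyruvate into lactate; neutrophils and activated macrophages are known for drawing much of their energy from this route, and mature mammalian red cells depend on it.

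The healthy cattle comprised 4 animals in each of AAC, COMBO and INR, and the BRD cattle comprised 4 in AAC, 3 in COMBO and 7 in INR. Total counts ranged from 31613545 to 61692136 per library with a median of 44268685, and the members had between 372 and 64144 counts in every library. One library, of AAC healthy animal 48 on day 13, had been removed by the authors. Another 3 had the lowest median correlation with the rest over all genes tested, at 0.943 (INR healthy animal 50, day 13), 0.949 (AAC BRD animal 21, day 13) and 0.952 (INR BRD animal 40, day 60), against a median of 0.966. The day 0 library of AAC BRD animal 21 held the highest PGK1, ENO1, HK1 and LDHA levels of all libraries. Calls that changed without the day 13 library of animal 50, the day 60 library of animal 40 or the day 0 library of animal 21 are named where they occur. The day 13 library of animal 21 was not left out on its own.

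Levels are CPM, a gene's counts relative to the library total, scaled by TMM factors, and a member was called changed at a false discovery rate (FDR) below 0.10 over all genes tested. CPM is not divided by transcript length, so levels were compared within a gene and not between genes. Median CPM over all libraries was 14.25 for SLC2A1, 393 for SLC2A3, 73.3 for HK1, 38.7 for HK2, 45.7 for PFKL, 188 for PFKFB3, 200.2 for PGK1, 569 for ENO1, 642 for PKM and 161 for LDHA. The highest library stood 2.55-fold above the lowest for PFKL and 6.42-fold above it for PFKFB3, the narrowest and the widest range among the members. The coefficient of variation ranged from 14.5% for PFKL to 46.95% for PFKFB3.

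**Figure D1:**
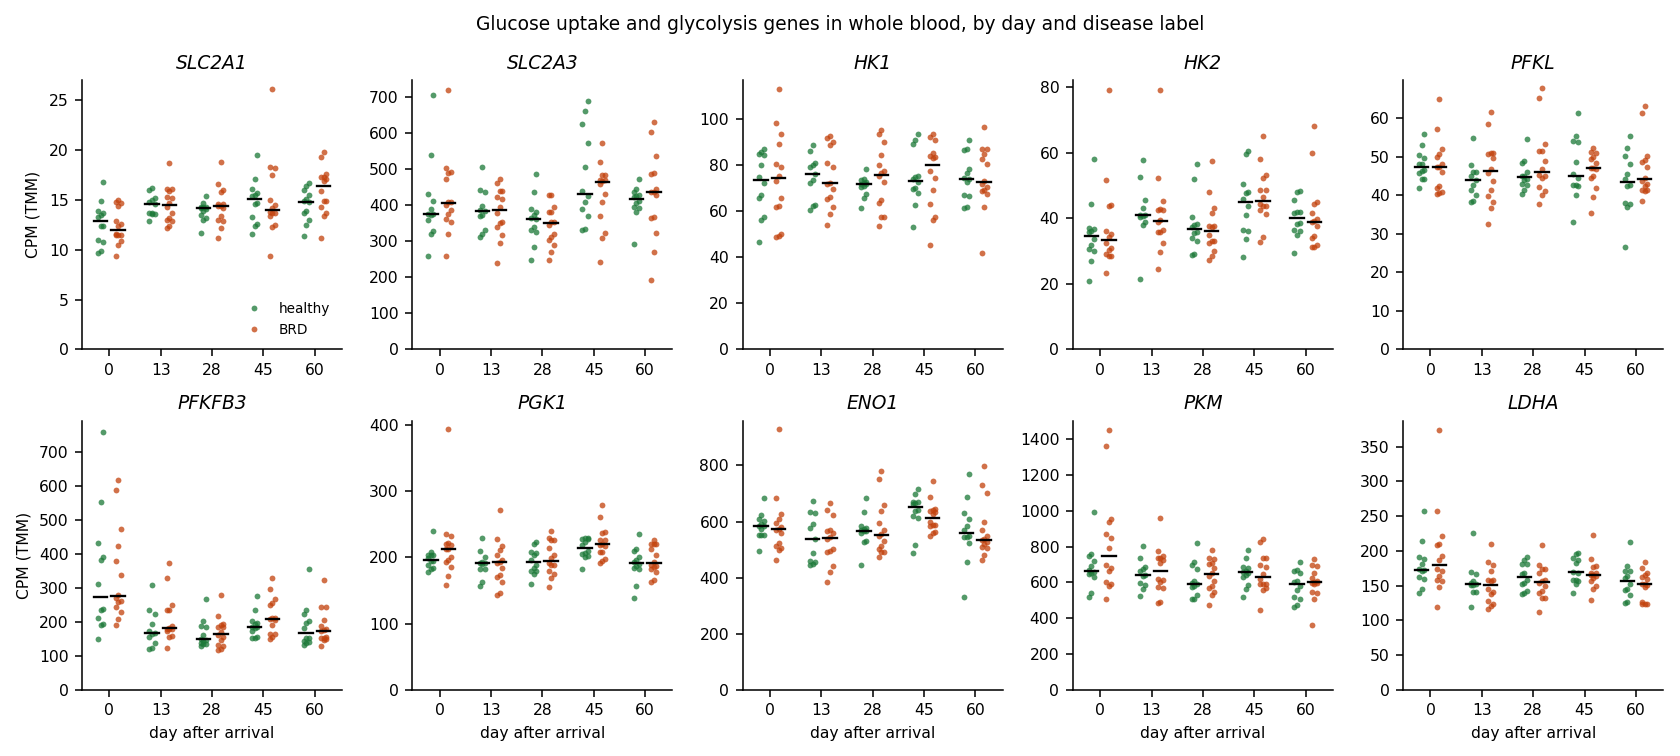
Level of each member in each library (CPM with TMM factors, linear axis from 0) against the day after arrival, with healthy cattle in green and BRD cattle in orange and a black bar at each median. PFKFB3 was highest on day 0, with a median of 275 CPM over 26 animals against 159 CPM on day 28, while the healthy and BRD points overlapped for every member on every day.

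The first comparison asked how the members changed after arrival, within animals and over all 26 cattle. PFKFB3 was lower than on day 0 at each later sampling, by 36.6% to 48.3%, and LDHA and PKM were lower at each later sampling as well, by 9.04% to 17.2% and by 12.9% to 21.1%. SLC2A1 was higher at each later sampling, by 13.5% to 21.9%, and HK2 was higher on days 13, 45 and 60. HK1 and PFKL were called on no day. In the edgeR model with animal as a block, 7 of 10 members were called on day 13 beside 33.21% of all genes, 5 on day 28 beside 36.04%, 5 on day 45 beside 30.95% and 6 on day 60 beside 33.36%. The members' median log2 fold change was -0.12, -0.05, 0.06 and -0.07 on the 4 days, against 0.01, 0.01, -0.01 and 0.00 over all genes tested. These 4 comparisons share the day 0 libraries, and day after arrival, age, feeding, vaccination and recovery from transport cannot be told apart in them. In whole blood, fewer cells of a type and less RNA per cell cannot be told apart either.

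PFKFB3 on day 0 ranged from 150 to 761 CPM with a median of 275 CPM (n = 26). Its median was 180 CPM on day 13 (range 120 to 375, n = 25), 159 CPM on day 28 (118.5 to 279, n = 26), 196 CPM on day 45 (148 to 330, n = 26) and 174 CPM on day 60 (130 to 356, n = 26). The ranges overlapped, since the lowest day 0 animals were at the level of the later days, but within animals the direction was nearly uniform. PFKFB3 was lower than on day 0 in 24 of 25 animals on day 13, in 25 of 26 on day 28 and in 24 of 26 on days 45 and 60. In 22 of 26 animals every later value was below that animal's day 0 value, and the 4 exceptions were INR healthy animals 7 and 30, AAC healthy animal 48 and COMBO BRD animal 18. The log2 fold change was -0.75 ± 0.10 (SE, FDR = 3.31e-09) on day 13, -0.95 ± 0.10 (FDR = 9.61e-14) on day 28, -0.66 ± 0.10 (FDR = 6.68e-08) on day 45 and -0.80 ± 0.10 (FDR = 1.14e-10) on day 60, all from edgeR. By p-value PFKFB3 ranked between 67 and 266 among the 18937 genes in these comparisons. The fall was seen under each supplement: the median change on day 28 was -0.81 in AAC (lower in 8 of 8 animals), -1.21 in COMBO (7 of 7) and -0.76 in INR (10 of 11).

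Of the carriers, SLC2A1 (GLUT1, the basal glucose carrier of many cells) had a median of 12.4 CPM on day 0 (range 9.33 to 16.8) and medians from 14.26 to 14.995 CPM on the later days, with overlapping ranges. It was higher than on day 0 in 19 of 25 animals on day 13, 20 of 26 on day 28, 21 of 26 on day 45 and 23 of 26 on day 60. The log2 fold change was between 0.18 ± 0.05 (FDR = 0.00115, day 28) and 0.29 ± 0.05 (FDR = 5.4e-07, day 60). The highest value of any library, 26.2 CPM, came from INR BRD animal 40 on day 45. SLC2A3 (GLUT3, the high-affinity carrier abundant in neurons and leukocytes) did not share this course. Its median was 387 CPM on day 0, 384 on day 13, 353 on day 28, 449 on day 45 and 427 on day 60. It was called only on day 28, with a log2 fold change of -0.25 ± 0.07 (FDR = 0.00743), when 18 of 26 animals were lower than on day 0.

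HK1, the hexokinase found in most cells, had medians from 72.3 to 74.7 CPM on the 5 days and log2 fold changes from day 0 between 0.00 and 0.04, with 95% intervals that lay within -0.09 and 0.14. HK2, the inducible hexokinase, had a median of 34.001 CPM on day 0 (range 20.98 to 79.27), 40.7 CPM on day 13 (21.4 to 79.1), 36.5 CPM on day 28 (27.4 to 57.5), 45.2 CPM on day 45 (28.3 to 65.1) and 39.004 CPM on day 60 (29.4 to 68.2). The ranges overlapped, and HK2 was higher than on day 0 in 21 of 25 animals on day 13 and in 22 of 26 on day 45. The log2 fold change of HK2 was 0.20 ± 0.08 (FDR = 0.0376) on day 13, 0.34 ± 0.07 (FDR = 0.000264) on day 45 and 0.18 ± 0.08 (FDR = 0.0604) on day 60. The day 13 call of HK2 was lost without animal 16 and the day 60 call without animal 29, 31 or 42, and in the fit without animal as a block their FDR was 0.186 and 0.279; the day 60 call was also lost with limma (FDR = 0.142). PFKL had medians from 43.9 to 47.2 CPM, and its log2 fold changes lay between -0.09 and -0.03 with intervals within -0.20 and 0.08.

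In the lower steps, PKM (pyruvate kinase of muscle and leukocytes) ranged from 510 to 1449 CPM on day 0 with a median of 685 CPM, and its later medians lay between 600 and 650 CPM. PKM was lower than on day 0 in 17 of 25 animals on day 13 and in 23 of 26 on day 60, with log2 fold changes of -0.20 ± 0.06 (FDR = 0.0135), -0.26 ± 0.06 (FDR = 0.000756), -0.21 ± 0.06 (FDR = 0.00915) and -0.34 ± 0.06 (FDR = 1.08e-05) on days 13, 28, 45 and 60. The day 0 values of PKM that stood highest were 1449 CPM in INR BRD animal 43 and 1361 CPM in AAC BRD animal 21. LDHA ranged from 118.9 to 374 CPM on day 0 with a median of 174 CPM, and its later medians were 152, 157, 167 and 153 CPM. LDHA was lower than on day 0 in 20 of 25 animals on day 13 and in 24 of 26 on day 60, and its log2 fold change was -0.27 ± 0.05 (FDR = 1.12e-05), -0.23 ± 0.05 (FDR = 0.000158), -0.14 ± 0.05 (FDR = 0.0302) and -0.27 ± 0.05 (FDR = 7.62e-06). The day 45 call of LDHA was lost in the fit without animal as a block (FDR = 0.113).

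PGK1 (phosphoglycerate kinase, the first ATP-forming step) had a median of 202 CPM on day 0 (range 158 to 394) with later medians of 191 CPM on day 13 and 191.5 CPM on day 60. It was called lower on day 13 (log2 fold change -0.12 ± 0.04, FDR = 0.0255) and on day 60 (-0.10 ± 0.04, FDR = 0.0584). The day 60 call of PGK1 was lost without the day 0 library of AAC BRD animal 21 (-0.07), without animal 21, 30, 39 or 43, without the block and with limma (FDR = 0.115). ENO1 (enolase) had a median of 577 CPM on day 0 and 538 CPM on day 13, and its day 13 call (log2 fold change -0.12 ± 0.05, FDR = 0.0763) was also lost without that library, at -0.08 (FDR = 0.233), and without animal 6, 7, 16, 18, 21, 30, 40, 42 or 50. It was lost as well without the day 13 library of animal 50 (FDR = 0.114), without the block (FDR = 0.123) and with no filter on low counts (FDR = 0.101).

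**Figure D2:**
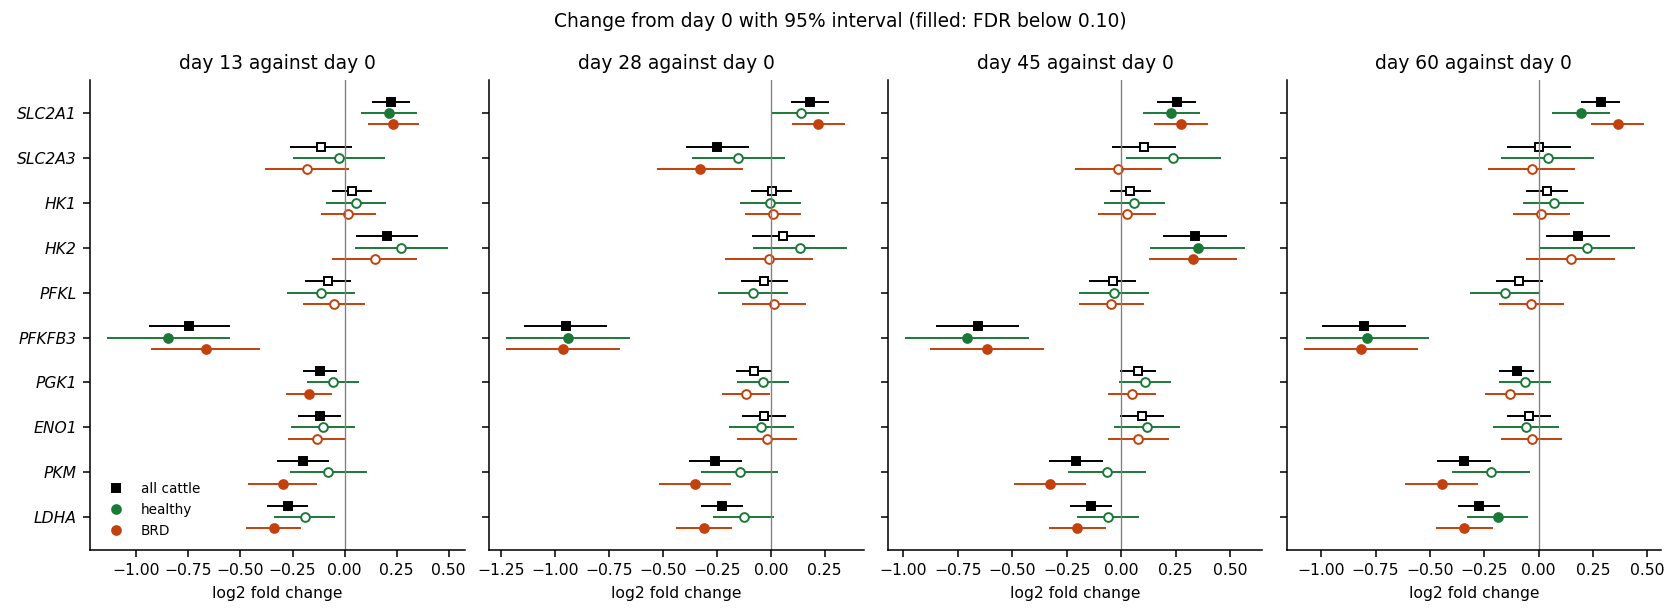
Log2 fold change of each member from day 0 (horizontal axis) on days 13, 28, 45 and 60, with 95% intervals, for all cattle (black squares), healthy cattle (green) and BRD cattle (orange); filled symbols passed an FDR of 0.10. PFKFB3 lay between -0.62 and -0.96 in every set, SLC2A1 lay above 0, and the healthy and BRD intervals overlapped for each member.

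Between successive samplings most calls fell between day 28 and day 45. From day 13 to day 28, during which the vaccine was repeated, 0 of 10 members were called by edgeR beside 1.964% of all genes, with 1 member at an unadjusted p below 0.05 and 0 called by DESeq2. From day 28 to day 45, 5 members rose and 0 fell, beside 28.79% of all genes called and 13.80% called higher. SLC2A3 rose by 0.35 ± 0.07 on the log2 scale (FDR = 0.00021, higher in 22 of 26 animals), PFKFB3 by 0.30 ± 0.10 (FDR = 0.0187, 23 of 26), HK2 by 0.28 ± 0.07 (FDR = 0.00314, 22 of 26), PGK1 by 0.16 ± 0.04 (FDR = 0.0032, 22 of 26) and ENO1 by 0.13 ± 0.05 (FDR = 0.0615, 21 of 26). The ENO1 rise was lost without animal 6, 18, 30, 41 or 43, and the ENO1 and PFKFB3 rises were lost without the block (PFKFB3 FDR = 0.107). From day 45 to day 60, 3 members fell, beside 8.602% of all genes called and 3.549% called lower: PGK1 by 0.18 ± 0.04 (FDR = 0.00533, lower in 22 of 26 animals), ENO1 by 0.14 ± 0.05 (FDR = 0.0913, 21 of 26) and LDHA by 0.14 ± 0.05 (FDR = 0.0876, 21 of 26). The ENO1 and LDHA calls were both lost when any of 13 animals was left out, without the block and without the day 13 library of INR healthy animal 50. Both were also lost with limma and with no filter on low counts. Of 37 alternatives, animals left out included, 23 ended the ENO1 call and 20 the LDHA call. Day 45 held the highest value of 16 of 25 animals for ENO1 and of 14 of 25 for PGK1, counted over animals with 5 libraries, while day 0 held the highest value of 22 of 25 animals for PFKFB3, 14 for LDHA and 13 for PKM.

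**Figure D3:**
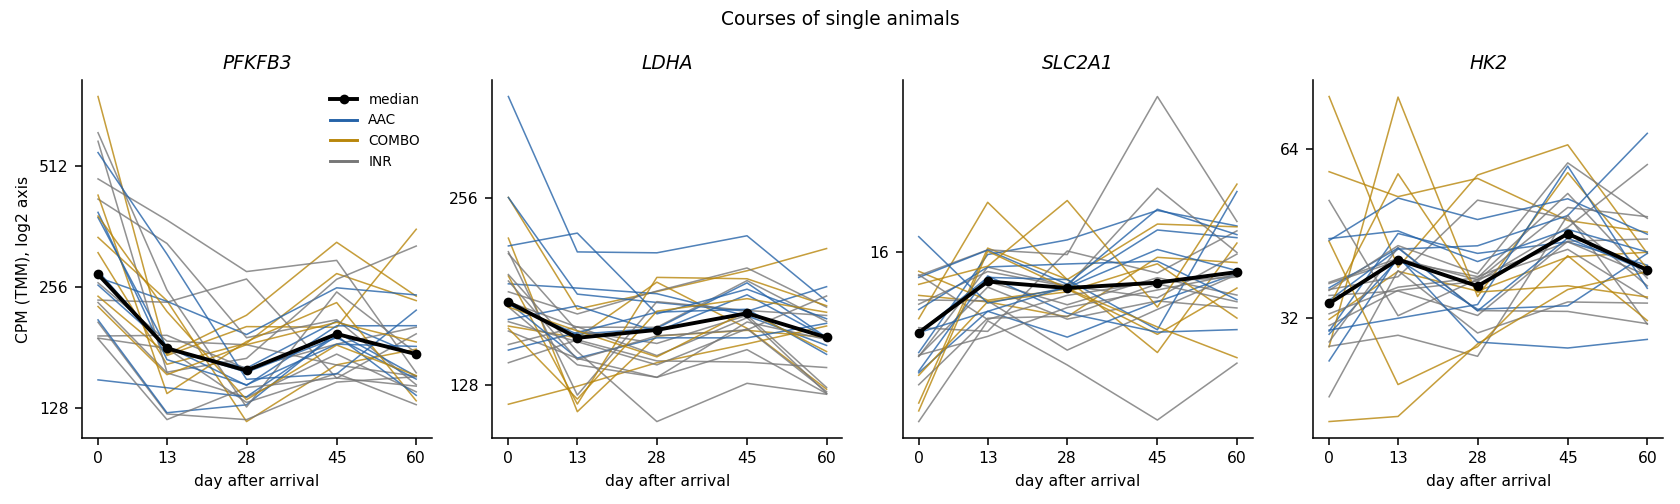
Courses of PFKFB3, LDHA, SLC2A1 and HK2 in single animals (CPM, log2 axis) against the day after arrival, with one line per animal coloured by supplement and the median of all animals in black. The PFKFB3 lines fell from day 0 to day 13 in 24 of 25 animals, and lines of the 3 supplements were interleaved.

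The next comparison asked whether the course differed between healthy and BRD cattle. In healthy cattle alone 2 members were called on day 13 (beside 10.95% of all genes), 1 on day 28 (20.98%), 3 on day 45 (8.555%) and 3 on day 60 (11.64%). PFKFB3 fell on all 4 days in this set, SLC2A1 rose on days 13, 45 and 60, HK2 rose on day 45 and LDHA fell on day 60. In BRD cattle alone 5 members were called on day 13 (beside 17.43% of all genes), 5 on day 28 (20.05%), 5 on day 45 (22.51%) and 4 on day 60 (19.62%). LDHA, PFKFB3, PKM and SLC2A1 were called on all 4 days there, PGK1 on day 13, SLC2A3 on day 28 and HK2 on day 45. In healthy cattle alone the SLC2A1 calls on all 3 days, the HK2 call on day 45 and the LDHA call on day 60 were lost in the fit without animal as a block, which called 1 member on each of days 13, 45 and 60, beside 4.082%, 2.081% and 3.063% of all genes. Of 23 alternatives, animals left out included, 4 ended the SLC2A1 call on day 13, 4 that on day 60 and 4 the HK2 call. The SLC2A1 call on day 45 was lost in 1. The LDHA call on day 60 was also lost without any of 9 of the 12 healthy animals, with no filter on low counts (FDR = 0.125) and without the day 60 library of INR BRD animal 40 (FDR = 0.101). In BRD cattle that fit lost PGK1 on day 13 (FDR = 0.137), SLC2A3 on day 28 (FDR = 0.106) and HK2 and LDHA on day 45 (FDR = 0.134 and 0.121). It called 4 members on each of days 13 and 28 and 3 on day 45, beside 7.409%, 9.342% and 10.58% of all genes. The PGK1 call on day 13 in BRD cattle was also lost without animal 21 and without its day 0 library alone (log2 fold change -0.12, FDR = 0.153), and the SLC2A3 call on day 28 was also lost without animal 43 (-0.19, FDR = 0.141) and with limma (FDR = 0.145).

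The difference between the labels was itself tested. In the test of BRD change minus healthy change, 0 of 10 members were called by edgeR on any of the 4 days, beside 0% of all genes on each day, and DESeq2 called 0 members as well. Of the 40 values, 1 had an unadjusted p below 0.05, PKM on day 45, with a difference of -0.26 (95% interval -0.51 to -0.02, FDR = 1). The PKM difference lay between -0.21 and -0.26 and the LDHA difference between -0.14 and -0.18 on the 4 days, toward the larger fall in BRD cattle. All 4 days share the day 0 libraries, where BRD animals 43 and 21 had the highest PKM of all libraries (1449 and 1361 CPM). Over the alternatives the PKM change in BRD cattle on day 45 lay between -0.38 and -0.19. The PFKFB3 difference ranged from -0.03 to 0.18. The intervals of all 40 differences lay within -0.55 and 0.57 on the log2 scale with 12 and 14 animals.

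Pooled over supplements, median levels on the same day were likewise close between the labels. PFKFB3 had a median of 274 CPM in healthy cattle (range 150 to 761, n = 12) and 275 CPM in BRD cattle (191 to 618, n = 14) on day 0. PKM had a median of 662 CPM in healthy cattle (520 to 992) and 745 CPM in BRD cattle (510 to 1449) on that day. SLC2A1 on day 60 had a median of 14.8 CPM in healthy cattle (11.4 to 16.7) and 16.38 CPM in BRD cattle (11.2 to 19.8). The ranges overlapped in each case. Within supplements the labels differed in opposite directions. The day 0 PFKFB3 medians of healthy and BRD cattle were 214 and 423 CPM in INR, 408 and 243 CPM in COMBO and 302 and 275 CPM in AAC. HK1 on day 28 ranged from 65.8 to 72.7 CPM in healthy and from 77.4 to 94.9 CPM in BRD cattle of AAC. Its ranges overlapped in COMBO and INR. Label differences within single supplements were not tested. With a mean for each supplement, label and day in edgeR, 0 of 10 members were called between BRD and healthy cattle on any day, beside 0.01584% of all genes on day 0, 0.005281% on days 28 and 60 and 0% on days 13 and 45. DESeq2 called 0 members too, and 1 of 50 values had an unadjusted p below 0.05, SLC2A1 on day 60, at a log2 difference of 0.17 (95% interval 0.00 to 0.34, FDR = 1). The intervals of the 50 differences lay within -0.36 and 0.56. Each difference averaged the supplements, so opposite differences within supplements could cancel. All COMBO healthy animals came from pen 5 and all COMBO BRD animals from pen 6, so label and pen cannot be told apart within COMBO. A fit restricted to the 4 pens that held both labels, with pen as a covariate, also called 0 members, beside 0.04958% of all genes on day 0, 0.006226% on day 13, 0.006068% on day 28 and 0% on days 45 and 60.

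The supplement comparison asked whether the members differed between supplements on each day. AAC and COMBO cattle were assigned the same feed and differed in assignment by the drench, so the mineral source in the feed differed only in pairs with INR. For its healthy cattle, however, the study reported higher copper and manganese intakes and a lower cobalt intake in AAC than in COMBO. The part of intake in the differences between supplements was not tested. Only AAC against COMBO on day 13 gave calls, with LDHA and PGK1 higher in AAC, 2 of 10 members beside 0.9294% of all genes. LDHA on day 13 ranged from 141 to 225 CPM in AAC (median 179, n = 7) and from 115.7 to 169 CPM in COMBO (median 127.2, n = 7). The 4 lowest COMBO animals were below every AAC animal and the other 3 were above the lowest AAC animal, so the groups overlapped. The log2 difference of LDHA was 0.42 ± 0.12 (FDR = 0.0887), or 33.4% higher in AAC. PGK1 on day 13 ranged from 191 to 271 CPM in AAC (median 218, n = 7) and from 146 to 200.5 CPM in COMBO (median 170, n = 7), with 2 COMBO animals above the lowest AAC animal. The log2 difference of PGK1 was 0.35 ± 0.10 (FDR = 0.0778), or 27.6% higher in AAC. INR cattle lay between the others, with a median of 150 CPM for LDHA and 183 CPM for PGK1 (n = 11), and neither gene was called in AAC against INR (LDHA 0.27 ± 0.11, FDR = 0.356; PGK1 0.26 ± 0.09, FDR = 0.281).

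Both calls were weak and came with other differences. In BRD cattle alone the 4 AAC animals were above the 3 COMBO animals in both genes, with log2 differences of 0.59 for LDHA (FDR = 0.0489) and 0.49 for PGK1 (FDR = 0.0659), beside 5.932% of all genes called. In healthy cattle alone, with 3 AAC and 4 COMBO libraries, the differences were 0.21 (FDR = 0.788) and 0.18 (FDR = 0.739), beside 0% of all genes. The difference between the labels was not tested. Leaving out any of COMBO animals 18, 42, 54 and 57 or AAC animals 9, 21, 31, 34 and 46 ended both calls, and leaving out any of animals 6, 16, 17 and 49 left 1 of them. The summed level of 6 monocyte markers on day 13 ranged from 2036 to 4665 CPM in AAC (median 2659) and from 1133 to 3879 CPM in COMBO (median 1802), that of 8 neutrophil markers had medians of 2147 and 2000 CPM (ranges 1511 to 3459 and 1329 to 2680), and that of 13 erythroid markers had medians of 12723 and 1608 CPM (ranges 230 to 84898 and 175 to 10385). In AAC and COMBO the medians were 1396 and 2339 CPM for 10 platelet markers (ranges 916 to 2685 and 1185 to 3025), 1822 and 1422 CPM for 11 T and NK cell markers (1184 to 2185 and 1141 to 2245) and 1719 and 2089 CPM for 6 B cell markers (1062 to 2758 and 1682 to 2367), with overlapping ranges in all 6 lists. The part of these shifts in the LDHA and PGK1 differences was not tested. Each pen held 1 supplement, so supplement and pen of enrollment cannot be told apart.

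**Figure D4:**
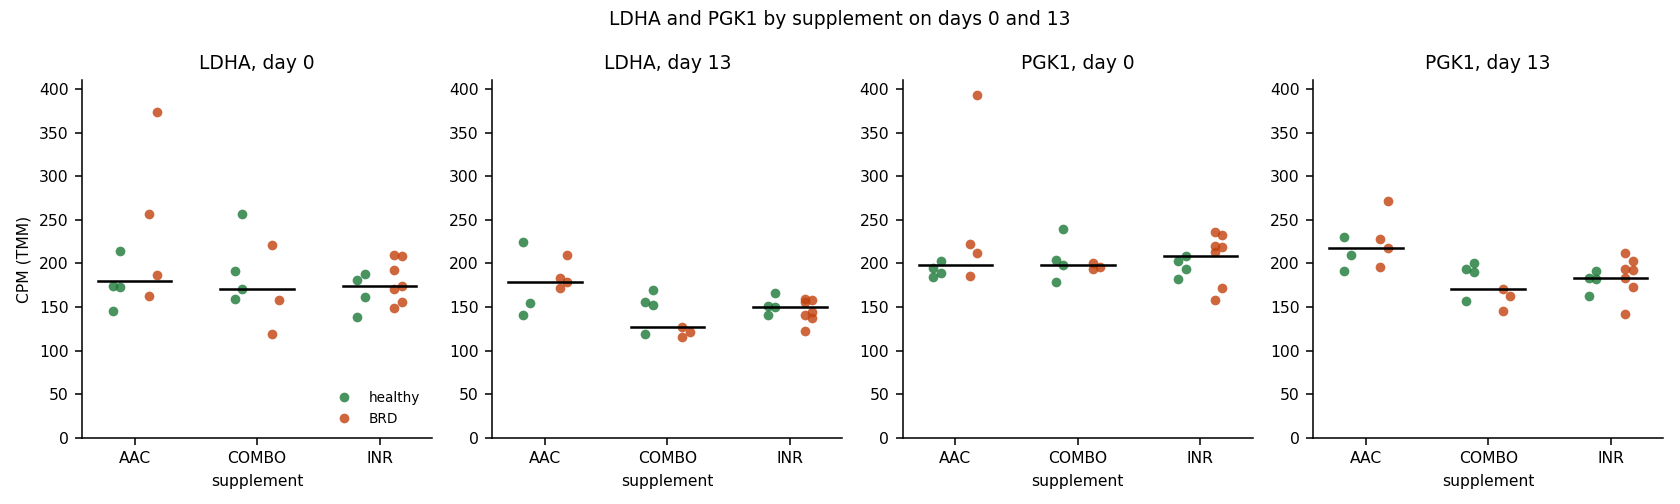
LDHA and PGK1 levels (CPM with TMM factors, linear axis from 0) by supplement on days 0 and 13, with healthy animals in green, BRD animals in orange and a black bar at each median. On day 13 the LDHA medians were 179 CPM in AAC, 127.2 CPM in COMBO and 150 CPM in INR, whereas on day 0 they were 180, 171 and 174 CPM.

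On the other days no member was called between supplements. In the 150 values of the 3 supplement pairs over 5 days, 2 were called and 12 had an unadjusted p below 0.05. On day 0, AAC against COMBO called 0 members beside 0.5650% of all genes, and LDHA stood at 180 CPM in AAC and 171 CPM in COMBO (medians). In BRD cattle alone, however, HK1 (0.66, FDR = 0.0308), PKM (0.64, FDR = 0.0445) and LDHA (0.56, FDR = 0.0302) were called higher in AAC than in COMBO on day 0, beside 12.89% of all genes, with 4 animals against 3. Without the day 0 library of AAC BRD animal 21 all 3 calls were lost, at 0.54 for HK1 (FDR = 0.133), 0.39 for PKM (FDR = 0.292) and 0.29 for LDHA (FDR = 0.313), and 0 members were called beside 6.633% of all genes. COMBO against INR called 0 members on every day, beside 0% of all genes on days 0, 13, 28 and 45 and 0.005281% on day 60, and AAC against INR called 0, beside 0% on days 0, 45 and 60, 0.04225% on day 13 and 0.01056% on day 28. AAC against COMBO called 0 members beside 0.03168% of all genes on day 28 and 0% on days 45 and 60. Over both labels, DESeq2 called LDHA and PGK1 in AAC against COMBO on day 13 (FDR = 0.0547 and 0.0423) and 0 members in the other 14 comparisons of pair and day. The intervals over the 150 values lay within -0.65 and 0.71 on the log2 scale.

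The members divided by where their variance lay. Day took 37.2% of the variance of log2 CPM for PFKFB3 and 19.45% for SLC2A1, against a median of 5.57% over all genes tested, but 0.558% for HK1 and 2.89% for PFKL. Animals took 63.6% for HK1, the largest share among the members, and 24.99% for PFKL, against a median of 42.1% over all genes. PFKL had 72.1% of its variance left after animals and days and HK1 had 35.9%, against a median of 48.5% over all genes tested. The shares were not adjusted for the number of animals and days, and the animal share includes label, supplement and pen of enrollment.

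Over all libraries the members did not rise and fall as 1 group. Of 45 pairs, 35 had a Pearson's r above 0 and 10 had an r above 0.5, with a median of 0.27; libraries share animals and days, so these values are descriptive, and the rank correlation is Spearman's. PKM and LDHA were the most alike (r = 0.82, rank correlation 0.82), followed by PGK1 and LDHA (r = 0.79, rank correlation 0.76), PGK1 and PKM (r = 0.76, rank correlation 0.75) and PFKL and ENO1 (r = 0.76, rank correlation 0.70). SLC2A1 and PKM were the least alike (r = -0.34, rank correlation -0.30). With each day's mean removed, PKM and LDHA were still at r = 0.81, while SLC2A1 and PFKFB3 moved from -0.26 to -0.04.

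The genes most like each member were also named by rank of r. For PFKFB3 they were CDKN1A, a cell cycle inhibitor (r = 0.83), TSC22D3, which encodes the leucine zipper protein GILZ (r = 0.83), and DLC1 (r = 0.81). For PKM they were S100A12, S100A8 and S100A9 (r = 0.90, 0.87 and 0.86), calcium-binding proteins of neutrophils and monocytes that stood in the neutrophil marker list. For LDHA they were the lysosomal protease gene CTSB (r = 0.86), SELENON (0.83) and PKM (0.82), and for PGK1 they included ATP1B3 (0.82) and the glycolytic enzyme gene PGAM1 (0.82). ENO1 was most like genes of mitochondria, MPC2, CHCHD2 and NDUFA8 (r = 0.89, 0.88 and 0.88), and PFKL most like the glycolytic enzyme gene TPI1 (0.87), C7H19orf70 (0.84) and NPEPL1 (0.84). SLC2A3 was most like FAM129A, CDS2 and PREX1 (r = 0.83, 0.82 and 0.81) and HK1 most like NEK6, RPS6KA1 and HDAC1 (0.80 for each). SLC2A1 (LOC101904042, SYTL1 and GPR4) and HK2 (SEC23A and CSF1 among them) had no gene above r = 0.67 and r = 0.59.

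Marker levels of blood cell types moved with day as well. From day 0 to day 60, 7 of 8 neutrophil markers tested and 6 of 6 monocyte markers were called lower, 8 of 10 platelet markers and 9 of 13 erythroid markers were called higher, and 1 erythroid marker was called lower, beside 33.36% of all genes called in either direction. The summed neutrophil markers had a median of 2698 CPM on day 0 (range 1629 to 10825) and 1822 CPM on day 60, and the summed monocyte markers 3446 CPM (1283 to 9556) and 2429 CPM. Of 11 T and NK cell markers 1 was called lower on day 60, and of 6 B cell markers 2 were called higher. Over libraries, PKM had an r of 0.85 with the summed neutrophil markers and 0.77 with the monocyte markers, LDHA 0.61 and 0.75, PFKFB3 0.69 and 0.40, and SLC2A3 0.64 and 0.51, whereas SLC2A1 had -0.34 and -0.23. PGK1 had 0.56 and 0.62, HK2 had 0.19 and 0.09, and HK1, which was called on no day, had 0.30 and 0.73. ENO1 and PFKL lay between 0.07 and 0.21 with both lists. INR BRD animal 43 had both the highest neutrophil sum (10825 CPM) and the highest PKM and SLC2A3 levels (1449 and 720 CPM) on day 0, and on day 60 it had a neutrophil sum of 749 CPM and the lowest PKM and SLC2A3 levels of all libraries (365 and 192 CPM). No marker of these lists that was tested was at 0 in every library. The part of these marker shifts in the changes of the members was not tested.

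**Figure D5:**
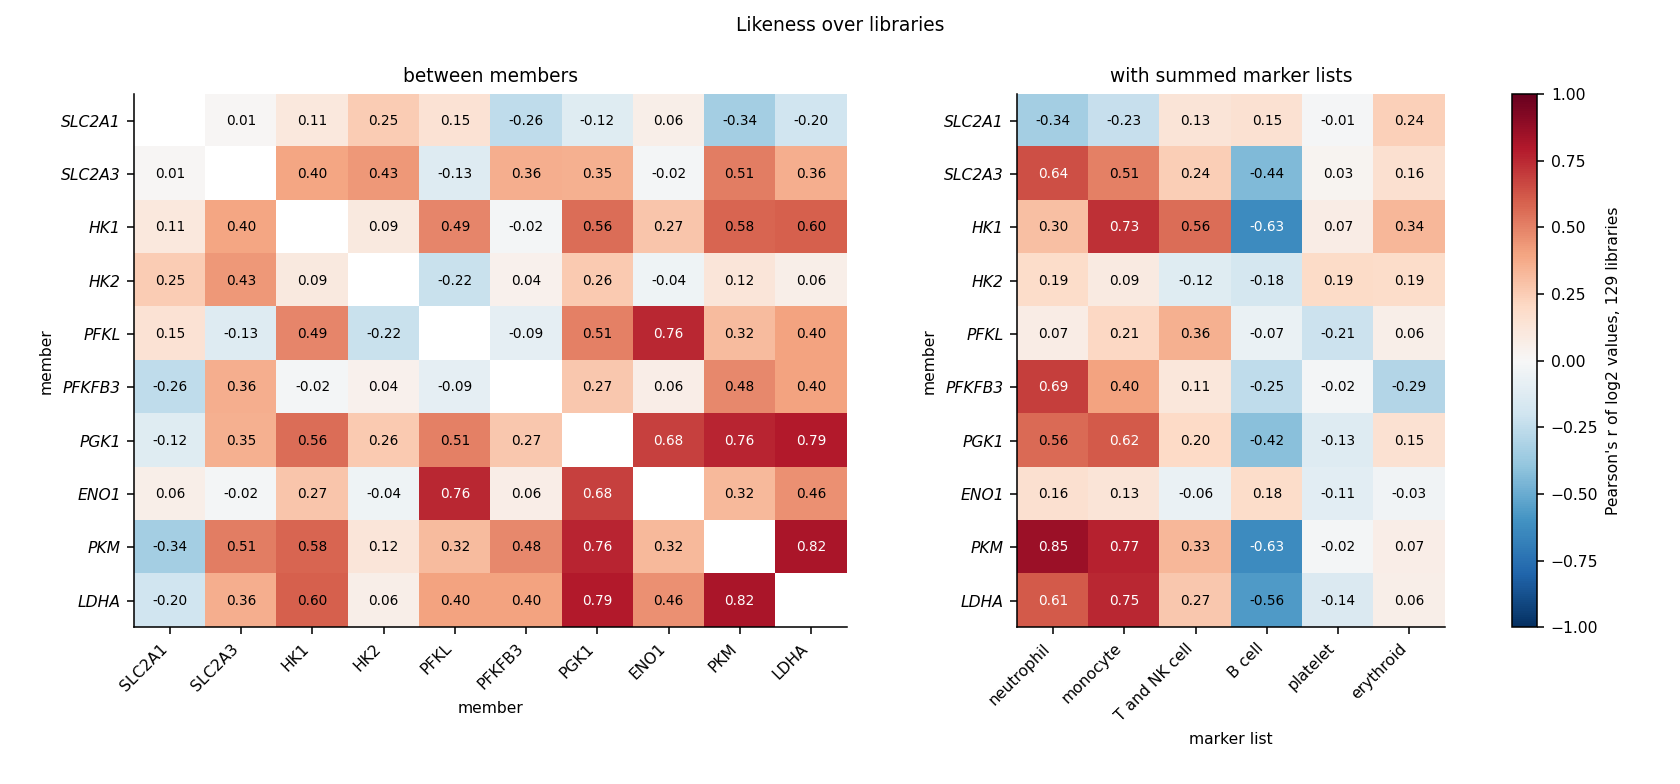
Pearson's r of log2 CPM over all libraries between members (left) and between members and the summed level of 6 marker lists (right), with red for positive and blue for negative values. PKM, LDHA and PGK1 formed the block of highest r (0.76 to 0.82), and PKM had the highest r with the neutrophil list (0.85).

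Of 81 other genes of glucose handling (carriers, glycolytic steps, pyruvate and lactate handling, pentose phosphate, glycogen and hypoxia response), 75 were tested. Against day 0, 7 rose and 27 fell on day 13, 13 rose and 26 fell on day 28, 17 rose and 10 fell on day 45, and 13 rose and 17 fell on day 60. The share called was 45.3%, 52%, 36% and 40% on these days, beside 33.21%, 36.04%, 30.95% and 33.36% of all genes. Their median log2 fold change was -0.07 on day 13 and 0.03 on day 45, against 0.01 and -0.01 over all genes tested. From day 28 to day 45, 26 of them rose and 5 fell (41.33% called, beside 28.79% of all genes). In BRD against healthy cattle and in each supplement pair, 0 of 75 were called on any day by edgeR.

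PDK4, which encodes a kinase that shuts off pyruvate dehydrogenase and so spares glucose, changed most among these genes. Its median was 97.3 CPM on day 0 (range 26.8 to 325) and 10.98 CPM on day 28 (6.94 to 24.2), ranges that did not overlap, with a log2 fold change of -3.06 ± 0.15 (FDR = 6.51e-35). PFKFB4, a second isoenzyme of the PFKFB family, fell on the same 4 days as PFKFB3, by 0.46 ± 0.10 on the log2 scale on day 13 (FDR = 0.000182) and by 0.58 ± 0.10 on day 60 (FDR = 1.69e-06), whereas PFKFB2 was called higher on days 13 and 28, at 0.17 ± 0.07 (FDR = 0.0426) and 0.24 ± 0.06 (FDR = 0.00255). Among carriers, SLC2A6, a lysosomal carrier of myeloid cells, was higher on all 4 days, with a log2 fold change of 0.60 ± 0.10 on day 28 (FDR = 4.41e-07). Among glycolytic enzymes, ENO3, the muscle-type enolase, was higher on all 4 days, at 0.65 ± 0.09 on day 45 (FDR = 4.62e-08), while ENO1 was not called on that day. SLC16A1, a lactate carrier, was lower on all 4 days, as LDHA was, with log2 fold changes from -0.26 ± 0.04 on day 13 (FDR = 2.32e-07) to -0.12 ± 0.04 on day 45 (FDR = 0.0193).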

How the data were processed

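The authors trimmed reads of stranded mRNA libraries with Trimmomatic 0.39, ran HISAT2 2.1.1 against the cattle genome build ARS-UCD1.3, and used StringTie 2.2.0 and prepDE to give a count per gene (versions per the submitters' processing notes); the deposited values are these counts, not normalized, made from coverage and read length rather than tallied. Whether reads shared with pseudogenes were split is not given in the sources used here.

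Counts were analysed in R 4.3.3 with edgeR 4.0.16, using TMM, common dispersion, quasi-likelihood F-tests and an FDR below 0.10 as in the study's pairwise tests. The filter on low counts (filterByExpr over supplement, label and day) was chosen here, and Benjamini-Hochberg adjustment was made per comparison. Changes between days were fitted with animal as a block, since labels give 5 samplings of the same animal; deviations from the group mean had a median correlation of 0.371 within animals and -0.0101 between them. Labels and supplements were compared within a model with a mean per supplement, label and day. SEs were derived from the F statistic and intervals are ± 1.96 SE. CPM and log2 CPM (prior count 2) gave levels, variance shares and correlations.

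Alternatives comprised the tests of DESeq2 1.42.0 and of limma 3.58.1 (voom, with a correlation for libraries of an animal), size factors by RLE, dispersion following a trend, an FDR of 0.05, no filter or a stricter one, no block, CPM without TMM, fits to single days or labels, pen as a covariate, supplements pooled, leaving out the low-integrity library of animal 40, and each animal left out with dispersion held at its full-data value. Leaving out the day 0 library of animal 21 and the day 13 library of animal 50, and the former from BRD cattle alone, was chosen after seeing the data. Methods were tested on simulated data. For the model of labels and supplements the simulated libraries of an animal were drawn independently, unlike the real ones. That test therefore cannot show how correlation within animals bears on those comparisons. The members and gene lists were chosen with earlier results of these data known. Named genes are the members, the 3 genes of highest r with each member (some are not reported here), and from each list at most 3 called genes of largest change per comparison. CSF3R, FPR1 and GP1BB of the marker lists matched no gene of the table. Samples of a group are separate animals. Coordinates, sequences and transcript lengths were not used here. Python 3.11.15 and matplotlib 3.10.9 drew the figures.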

Additional observations from a re-analysis of the deposited data

Results flagged for a closer look

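In each combination of supplement, label and day with 4 to 7 animals, the highest and the lowest value of every member was compared with its nearest neighbour, relative to the range of the group. Of 240 such groups 9 had a value beyond the 95% limit, and chance alone gives about 5% of groups.

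In INR BRD cattle, animal 40 stood apart for SLC2A1 on day 45, at 26.2 CPM against 9.37 to 14.9 CPM in the other 6, and for PFKL on day 60, at 63.2 CPM against 38.6 to 48.6 CPM. Its day 60 library is the one the study names for low RNA integrity. Animal 43 of the same group stood apart on day 0 for PKM, at 1449 CPM against 590 to 938 CPM, and for HK2, at 51.8 CPM against 23.2 to 35.1 CPM. PFKFB3 of animal 27 on day 60 was 323 CPM against 130 to 175 CPM in the others.

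Among groups of 4, AAC BRD animal 21 on day 13 had 236 CPM of PFKFB3 against 180 to 182 CPM. INR healthy animal 10 on day 0 had 46.6 CPM of HK1 against 84.6 to 86.8 CPM, and INR healthy animal 7 on day 28 had 51.9 CPM of HK2 against 37.4 to 38.4 CPM. COMBO healthy animal 57 on day 28 had 530.3 CPM of ENO1 against 566 to 573 CPM.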

How the results depend on the processing

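Counts of members called kept within 1.5 times of the reported ones except as follows. Without animal as a replicate block, 1 member was called in healthy cattle on days 13, 45 and 60, 3 in BRD cattle on day 45, 3 from day 28 to day 45 and 1 from day 45 to day 60; the block changed no other count by that much. From day 45 to day 60, 1 member was also called at an FDR of 0.05, with no filter on low counts, with limma and without the day 13 library of animal 50, and 1 was called in healthy cattle on day 60 at an FDR of 0.05. For AAC against COMBO on day 13, 0 members were called at an FDR of 0.05, with no filter, with the day fitted alone and in healthy cattle alone, and 1 with limma; on day 0, 3 were called in BRD cattle alone and 0 there without the day 0 library of animal 21. With each animal left out in turn, the count ranged from 1 to 3 in healthy cattle on days 13 and 60, from 1 to 2 on day 28, from 1 to 3 from day 45 to day 60 and from 0 to 3 for AAC against COMBO on day 13; the counts of 1 in healthy cattle came without animal 34 or 57 on day 13 and without animal 3 on day 60, and those of 2 on day 28 without animal 7 or 46. For AAC against COMBO the FDR of LDHA ranged from 0.0263 to 0.788 and that of PGK1 from 0.0301 to 0.739 over these alternatives. No called value changed sign under any alternative. DESeq2, RLE factors, a trended dispersion and the stricter filter kept all 61 called values past the threshold, and the fit without the block lost 18 of 59. PFKFB3 against day 0 was called under every alternative run, with log2 fold changes from -0.59 to -1.01 over all cattle. The causes of these changes were not tested. Shares of all genes called under an alternative, DESeq2 and leaving out animals included, are given only where printed above. Elsewhere the counts cannot show whether the members moved with all genes. CPM without TMM factors moved r between members by at most 0.18 and changed the sign of 5 of 45 pairs. With 3 to 7 animals per supplement and label, interval bounds of the supplement comparisons reached -0.65 and 0.71 on the log2 scale.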
